A study of Homo sapiens with 16 samples.

Results

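The genes described here are the human mitochondrial ribosomal protein genes that carry an MRPL or MRPS symbol, which stands for a protein first assigned to the large or the small subunit of the mitochondrial ribosome. They were chosen by symbol alone, as MRPL or MRPS followed by a number and an optional letter. Of 17553 named genes on the arrays 76 met this rule, with 104 probes, and 73 of them were among the 9654 items that could be tested (9172 named genes and 482 unnamed probes). MRPL3, MRPL44 and MRPS18C were detected on 0 of 16 arrays, so they were not well above background in any group and were not tested.

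RNA of T47D-MTVL cells, a luminal breast cancer line of human origin that carries a viral promoter joined to luciferase in its genome, was hybridised to Illumina bead arrays, 16 in all, 2 per group. The hairpin lines also carry a red fluorescent protein and a Dox-responsive KRAB repressor, and were sorted for red and green fluorescence after 3 days of doxycycline (Dox) and then expanded without it. The sh225 line has a Dox-inducible hairpin against several linker histone H1 variants, the sh120 line one against the linker histone H1.4, and the Ctrl line one of random sequence. Each was grown with Dox at 2.5 µg/mL for 6 days (sh225 Dox, sh120 Dox and Ctrl Dox), passaged after 3 days and kept without serum after 4, or without Dox (sh225, sh120 and Ctrl). A further pair of stable lines received no treatment and overexpressed H1.4 with an HA tag, either with the K26A substitution (K26) or wild type (WT). The labels do not state whether serum was also withdrawn from the untreated arms, so Dox and serum withdrawal cannot be told apart.

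The mitochondrial ribosome translates the few proteins that mitochondrial DNA encodes, all of them subunits of the respiratory chain or the ATP synthase. Its RNA comes from mitochondrial DNA, but all of its proteins are encoded in the nucleus, made in the cytosol and imported. Doxycycline, a tetracycline antibiotic, blocks the bacterial ribosome and also the mitochondrial one, so that inducible hairpin systems expose mitochondrial translation to the inducer. The arrays measured RNA, and mitochondrial translation itself was not measured.

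Promoters of these genes are known for sites of ETS factors such as GABP, of YY1 and of NRF1, regulators of nuclear genes for mitochondrial proteins. RefSeq promoter windows, from 250 bases before to 50 after the first listed start (GRCh38.p14), were at hand for 68 of the 76 genes. Letters searched on both strands were CCGGAAG for the ETS core, AANATGGCG for YY1, GCGC, any base and TGCGC in a row for NRF1 and TATAAA for the TATA box. Each motif was searched by itself, so letters shared by overlapping matches counted for both. The ETS letters stood in 29 of the 68 member windows (42.6%), against 14.2% of the windows of 15842 protein-coding genes. YY1 letters stood in 18 (26.5%) against 4.81%, NRF1 letters in 8 (11.8%) against 8.57%, and the TATA box letters in 2 (2.94%) against 9.63%. At least 1 of the ETS, YY1 and NRF1 motifs was present in 47 windows (69.1%), against 24.2% of all. A match of letters is a description of the window and not a measured binding site.

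The stretches before the start are shown for 5 of the members named below, 5′ to 3′ on the gene's own strand, from RefSeq GRCh38.p14, with ETS or NRF1 letters in capitals. They are examples and do not stand for all called members. MRPL18 (chr6:159789603-159789811, plus strand) had the largest fall with Dox in sh225, and its 209 bases are the whole gap to the divergent gene TCP1. MRPL55 (chr1:228109300-228109549, minus strand) and MRPS17 (chr7:55951627-55951876, plus strand) were called in the same direction in both lines with a hairpin against H1. MRPS18A (chr6:43687792-43688041, minus strand) and MRPL45 (chr17:38296918-38297167, plus strand) were higher with Dox in sh225 and hold the ETS and the NRF1 letters. None of the letters searched stands in the first 3 stretches. MRPL36, which also fell with Dox in sh225 and is not shown, holds YY1 and NRF1 letters in its window.
MRPL18: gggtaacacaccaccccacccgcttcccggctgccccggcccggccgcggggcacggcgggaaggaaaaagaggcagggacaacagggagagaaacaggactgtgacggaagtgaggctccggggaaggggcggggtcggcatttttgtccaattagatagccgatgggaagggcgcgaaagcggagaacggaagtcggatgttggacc
MRPL55: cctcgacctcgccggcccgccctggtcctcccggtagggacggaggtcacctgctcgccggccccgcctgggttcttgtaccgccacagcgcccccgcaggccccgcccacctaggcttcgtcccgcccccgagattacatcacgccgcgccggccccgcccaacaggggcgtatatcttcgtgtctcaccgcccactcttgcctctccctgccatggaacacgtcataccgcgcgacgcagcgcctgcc
MRPS17: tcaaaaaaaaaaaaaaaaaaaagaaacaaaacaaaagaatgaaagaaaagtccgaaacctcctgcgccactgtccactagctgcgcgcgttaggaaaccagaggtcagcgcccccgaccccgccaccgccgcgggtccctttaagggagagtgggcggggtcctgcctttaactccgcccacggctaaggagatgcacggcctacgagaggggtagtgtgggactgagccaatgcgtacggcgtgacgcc
MRPS18A: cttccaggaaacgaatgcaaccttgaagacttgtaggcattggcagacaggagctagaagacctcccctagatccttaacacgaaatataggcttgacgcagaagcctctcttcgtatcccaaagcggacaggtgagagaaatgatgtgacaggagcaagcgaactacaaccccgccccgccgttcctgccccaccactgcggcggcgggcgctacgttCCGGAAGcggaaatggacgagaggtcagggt
MRPL45: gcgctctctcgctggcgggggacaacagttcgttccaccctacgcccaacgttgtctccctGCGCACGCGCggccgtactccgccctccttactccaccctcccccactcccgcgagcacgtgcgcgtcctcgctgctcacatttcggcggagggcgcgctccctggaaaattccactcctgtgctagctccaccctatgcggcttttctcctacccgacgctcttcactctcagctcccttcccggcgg

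Between 9477 and 10286 of 24530 probes were detected per array, at a detection p under 0.01, and replicates correlated at r = 0.989 to 0.994 across all items. Levels are log2 intensities after background correction and quantile normalization, and they compare arrays for 1 probe, not probes with each other. A gene with several detected probes is represented by the brightest, and whether a probe also reads pseudogene copies was not tested. Of the 73 tested members 72 were detected on all 16 arrays and MRPL19 on 13. The hairpin against H1.4 could not be checked on its target, because the H1-4 probe was detected on 0 of the 12 hairpin arrays, but it was detected on 2 of 2 K26 and 2 of 2 WT arrays. H1-2, another H1 variant, had 5.87 and 6.29 on the sh225 Dox arrays, against 8.85 and 8.81 on the untreated sh225 arrays, a log2 fold change of -2.75. The luminal markers KRT8, KRT19, ESR1, PGR, GATA3 and FOXA1 were detected on 16 arrays each, KRT18 on 15 and EPCAM on 12, and the basal keratins KRT5 and KRT14 on 0. Of the other cell type markers, COL1A1 was detected on 16 arrays and CD14 on 4, while PTPRC, CD3E, COL1A2, DCN, PDGFRB, PECAM1, CDH5 and VWF were detected on 0.

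Every p-value below comes from 1 limma model of all 16 arrays, adjusted over all 9654 items by the Benjamini-Hochberg method, and a gene is called at an adjusted p under 0.05. Precision is limited by having 2 arrays a group, and a member's log2 fold change had a median SE of 0.128. Labels do not say that the 2 replicates of a group were separate cultures, so the p-values measure the spread between these samples, which may be technical. The sample descriptions number the arrays 1 to 8 in 2 runs, with Ctrl and sh120 arms in one and sh225, WT and K26 in the other. Each Dox effect and K26 against WT therefore lie within a run.

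Dox in cells with the random hairpin is the comparison with the inducer but no hairpin against a histone. No member was called: 0 of 73, with 4 at an unadjusted p under 0.05, while 2.98% of all items were called in this comparison (limma). The median log2 fold change of the members was 0.02, against 0.01 over all items. The values ran from -0.28 for MRPL18 to 0.29 for MRPS18A. For 68 of the 73 members the 95% interval lay within a 1.5-fold change in either direction, and for all 73 within 2-fold, the outermost bounds being -0.65 and 0.81 on the log2 scale.

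The 4 members under an unadjusted p of 0.05 were MRPL22, MRPL54 and MRPL46, which were numerically higher, and MRPL18, which was numerically lower. MRPL22 (homologue of bacterial L22, which lines the exit tunnel) had 11.75 and 11.78 on the Ctrl Dox arrays, against 11.51 and 11.51 on the Ctrl arrays, a difference of 0.26 (SE 0.10, adjusted p = 0.192). The mitochondria-specific protein MRPL54 had 10.19 and 10.14 with Dox, against 9.79 and 9.98 without, a difference of 0.28 (SE 0.11, adjusted p = 0.214). MRPL18 had 10.20 and 10.24 with Dox, against 10.52 and 10.48 without (log2 fold change -0.28, SE 0.12, adjusted p = 0.271). In these 3 genes both Ctrl Dox arrays lay on 1 side of both Ctrl arrays, but the differences did not pass the adjustment. Among all 73 members the 2 arms were apart in 16 that were higher and 10 that were lower, with none called. Arms that do not overlap on 2 arrays each are thus common among the members, and they add no support to a call. The share of all items with arms apart was not counted in any comparison, so these numbers say nothing particular to the members. The members stayed at 0 calls under each alternative of processing that was run and without any single array.

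**Figure D1:**
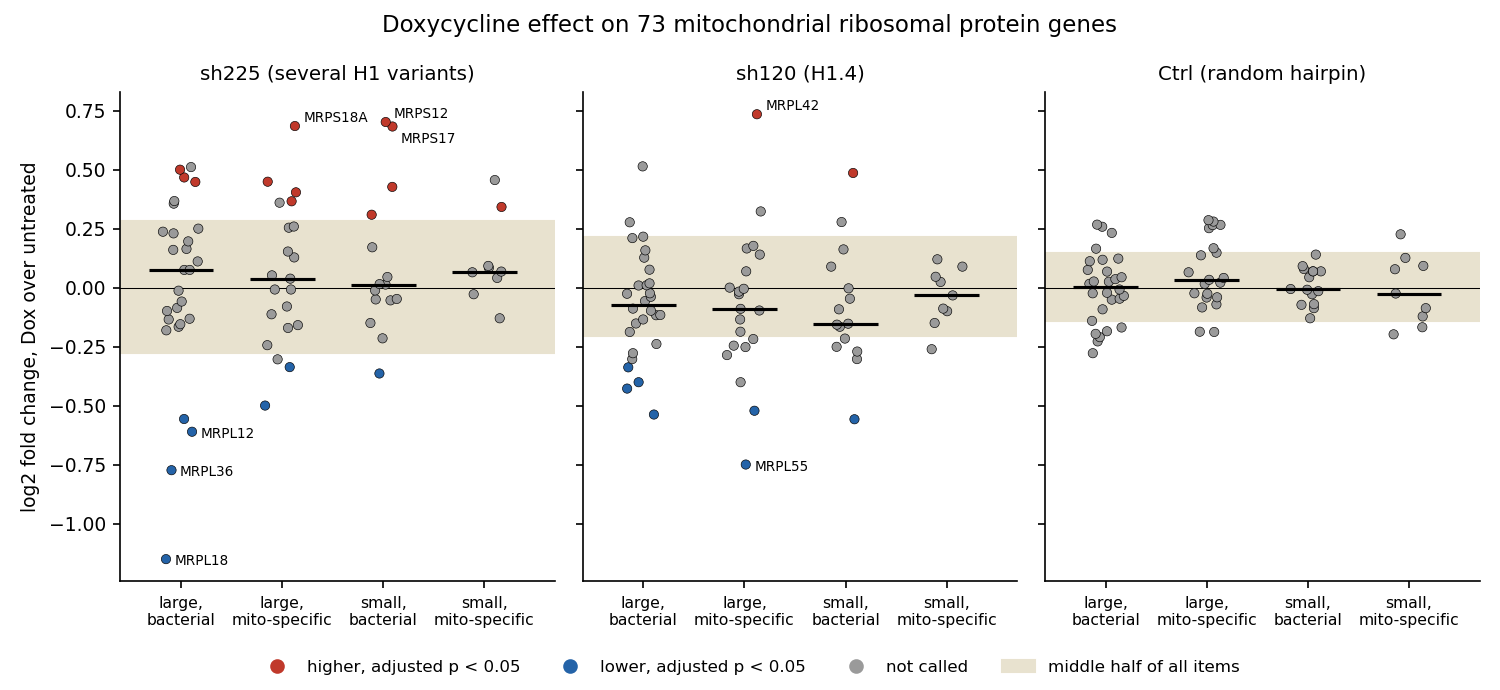
Log2 fold changes of Dox over no Dox for the 73 tested members in the sh225, sh120 and Ctrl lines, split by subunit and by whether the protein has a bacterial counterpart; each dot is a gene, black bars are group medians and the band spans the interquartile range of all 9654 items. Coloured dots are the 19 calls in sh225 and the 9 in sh120, and the Ctrl panel has none.

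With Dox in the sh225 line 19 of 73 members were called, 12 higher and 7 lower, when 35.6% of all items were called (17.1% higher and 18.5% lower). The members' share of 26% was below that of all items. Of the 7 falls 6 were in large-subunit proteins, which make up most of the tested members. The falls were led by MRPL18, MRPL36 and MRPL12, and the largest rises were those of MRPS12, MRPS18A and MRPS17. The median of the members was 0.04 on the log2 scale, against 0.03 over all items. In RNA of whole cultures, fewer cells with a transcript and less of it per cell cannot be told apart. Most changes were small: 6 members passed a 1.5-fold change and 1, MRPL18, a 2-fold change, which 6.58% of all items passed. How many rose and fell depends on the scaling. With array medians set equal in place of quantiles, which put the median of all items at 0.12, 22 members were called higher and 4 lower, and with the medians of the tested items set equal 18 were called higher and 6 lower. Without untreated sh225 replicate 2, 10 members were called.

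MRPL18, counterpart of the bacterial protein L18 that binds 5S ribosomal RNA, had 9.67 and 9.48 on the sh225 Dox arrays, against 10.64 and 10.82 on the untreated sh225 arrays. This is a log2 fold change of -1.15 (SE 0.12, adjusted p = 7.49e-07), or 2.22-fold lower, and both treated arrays were below all 14 other arrays. MRPL36, a small zinc-binding protein of the large subunit, had 10.19 and 10.25 with Dox, against 10.96 and 11.03 without (log2 fold change -0.77, SE 0.10, adjusted p = 4.99e-06). The same separation from the other 14 arrays held for MRPL36 and for MRPL12, the next member. MRPL12, counterpart of the bacterial L7/L12 stalk protein that recruits translation factors, had 9.70 and 9.69 with Dox, against 10.16 and 10.45 without (log2 fold change -0.61, SE 0.11, adjusted p = 0.000229).

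MRPL11 lies at the base of that stalk in bacteria. Its brightest probe read 9.50 and 9.64 with Dox, against 10.00 and 10.25 without (log2 fold change -0.56, SE 0.12, adjusted p = 0.00151), while its other 2 detected probes moved by -0.14 and -0.13, and the call was lost when the probes were averaged (-0.28). MRPL55, a mitochondria-specific protein of the large subunit, had 9.74 and 9.74 with Dox, against 10.08 and 10.40 without (log2 fold change -0.50, SE 0.12, adjusted p = 0.00407). Its other 2 probes moved by -0.02 and 0.01, so the fall was that of 1 probe of 3 and was not called in their mean (-0.17). MRPS28, a small-subunit protein, had 8.90 and 8.92 with Dox, against 9.21 and 9.34 without (log2 fold change -0.36, SE 0.13, adjusted p = 0.0398). The mitochondria-specific MRPL49 had 8.80 and 8.70 with Dox, against 8.98 and 9.20 without (log2 fold change -0.34, SE 0.12, adjusted p = 0.0328). The MRPS28 call was lost under 9 of 16 alternatives and that of MRPL49 under 5 of 16. The 2 arms did not overlap in any of these 4 genes. In sh225 they were apart in 24 members that were higher and 15 that were lower, called or not. The share of all items with arms apart was not counted.

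Of the 12 rises, MRPS12, counterpart of the bacterial S12 at the decoding centre, was the largest, with 10.85 and 11.09 on the sh225 Dox arrays, against 10.27 and 10.27 on the untreated ones (log2 fold change 0.70, SE 0.13, adjusted p = 0.000293). Its dimmer probe moved by 0.14. The scanner table and the authors' series matrix appear to exchange the identifiers of these 2 probes. With the series matrix the value was 0.12 with an adjusted p of 0.399 (limma), so which MRPS12 probe changed is uncertain. MRPS18A, which despite its symbol is a protein of the large subunit, had 8.48 and 8.79 with Dox, against 8.01 and 7.89 without (log2 fold change 0.68, SE 0.15, adjusted p = 0.00186). MRPS17, counterpart of the bacterial S17 that binds 16S ribosomal RNA, had 10.99 and 11.10 with Dox, against 10.58 and 10.14 without (log2 fold change 0.68, SE 0.15, adjusted p = 0.0013). Treated and untreated arrays of sh225 did not overlap in these 3 genes.

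MRPL13, of the large subunit, had 10.22 and 10.18 with Dox, against 9.87 and 9.53 without (log2 fold change 0.50, SE 0.14, adjusted p = 0.00853). MRPL4, counterpart of the bacterial L4 that reaches into the exit tunnel, had 7.35 and 7.62 with Dox, against 6.99 and 7.04 without (log2 fold change 0.47, SE 0.15, adjusted p = 0.022). MRPL45, which sits at the tunnel exit and tethers the ribosome to the inner membrane, had 11.21 and 10.98 with Dox, against 10.77 and 10.51 without (log2 fold change 0.45, SE 0.14, adjusted p = 0.0209). A further probe of MRPL4 moved by 0.03 and one of MRPL45 by -0.05, and both calls were lost when probes were averaged. MRPL1, counterpart of the mobile L1 stalk, had 8.21 and 8.00 with Dox, against 7.67 and 7.65 without (log2 fold change 0.45, SE 0.17, adjusted p = 0.0447). Its call was lost under 7 of 16 alternatives. MRPS6 had the smallest error of the rises, with 12.66 and 12.65 with Dox, against 12.19 and 12.27 without (log2 fold change 0.43, SE 0.08, adjusted p = 0.000454). In these 5 genes both treated arrays were above both untreated arrays. The remaining rises were those of MRPL50, MRPS30, MRPS31 and MRPS10, with log2 fold changes of 0.31 to 0.40.

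**Figure D2:**
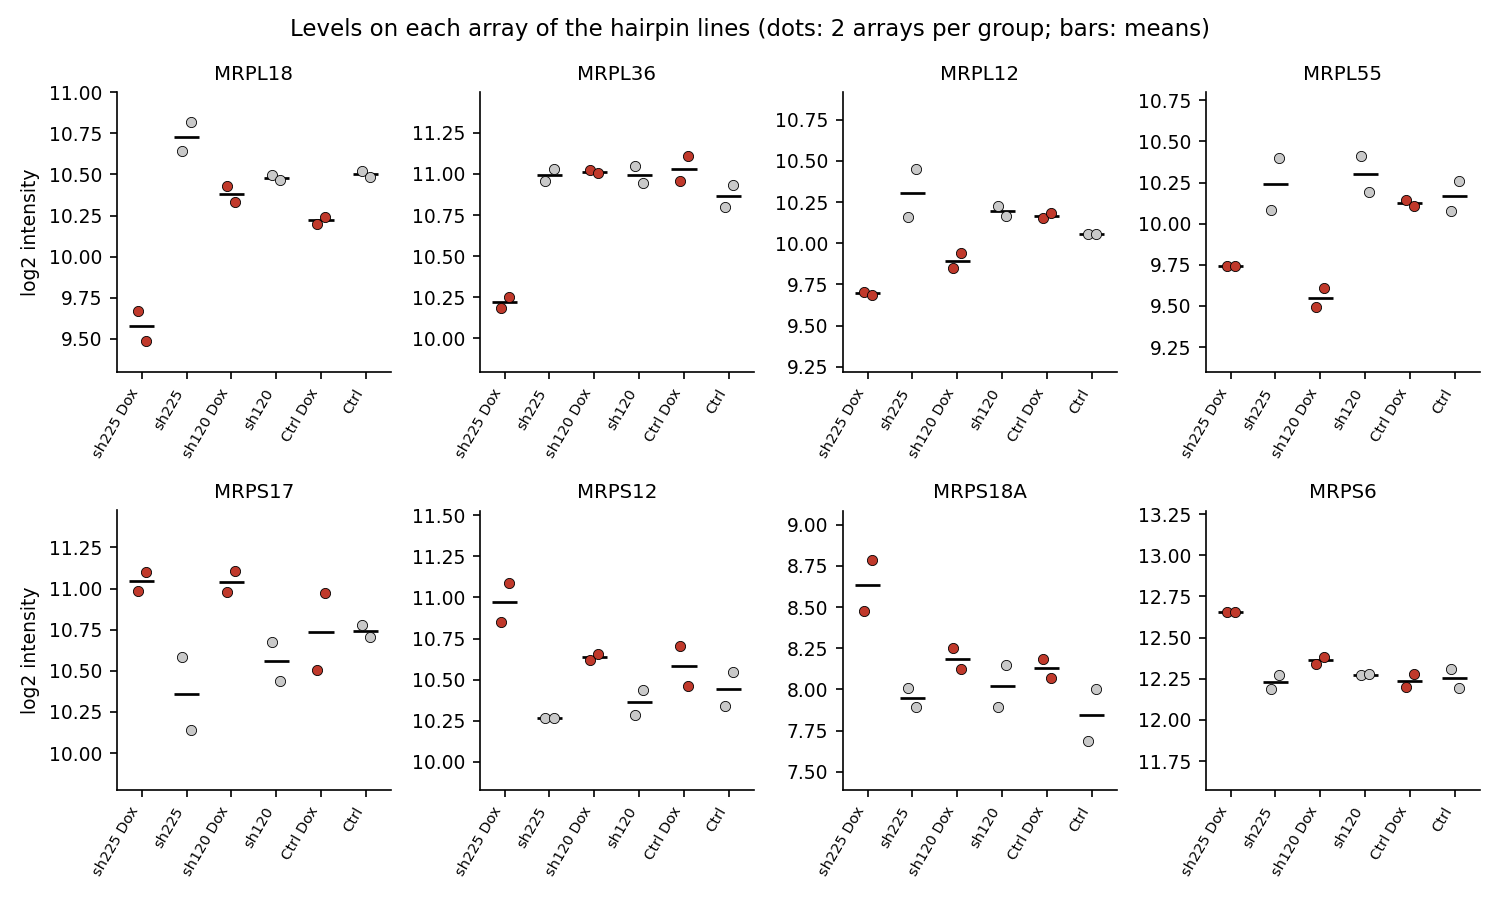
Log2 intensities on each array of the hairpin lines for 8 members, with Dox in red and untreated in grey; dots are the 2 arrays of a group and bars their mean, and every panel spans the same range on the log2 scale. MRPL18 and MRPL36 are low on both sh225 Dox arrays alone, while MRPL55 and MRPS17 differ between the arms of sh225 and of sh120.

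With Dox in the sh120 line 9 of 73 members were called, 2 higher and 7 lower, when 16.5% of all items were called (8.07% higher and 8.43% lower). The members' share was 12.3%, and their median was -0.09, against 0.01 over all items. Of the 7 falls 6 were in large-subunit proteins, which make up most of the tested members, and 1 in the small-subunit protein MRPS15. MRPL55 had 9.49 and 9.61 on the sh120 Dox arrays, against 10.41 and 10.19 on the untreated sh120 arrays (log2 fold change -0.75, SE 0.12, adjusted p = 0.000673). Its other 2 probes read 0.35 and -0.21, so here too the fall belonged to 1 probe. MRPS15, counterpart of the bacterial S15 that binds 16S ribosomal RNA, had 10.26 and 10.33 with Dox, against 10.83 and 10.88 without (log2 fold change -0.56, SE 0.10, adjusted p = 0.00162). MRPL21 had 10.54 and 10.27 with Dox, against 11.03 and 10.86 without (log2 fold change -0.54, SE 0.13, adjusted p = 0.011), and its second probe moved by -0.19. MRPL40, a mitochondria-specific protein encoded in the 22q11 region, had 9.60 and 9.66 with Dox, against 10.20 and 10.10 without (log2 fold change -0.52, SE 0.13, adjusted p = 0.0116). The arms were apart in all 4.

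MRPL23, whose bacterial counterpart lies at the tunnel exit, had 9.93 and 9.99 in sh120 Dox, against 10.24 and 10.54 in sh120 (log2 fold change -0.43, SE 0.14, adjusted p = 0.0364). MRPL27 had 10.36 and 9.98 with Dox, against 10.51 and 10.64 without (log2 fold change -0.40, SE 0.12, adjusted p = 0.0349), and MRPL24 had 11.92 and 11.67, against 12.15 and 12.12 (log2 fold change -0.34, SE 0.10, adjusted p = 0.0312). The second MRPL27 probe moved by 0.08. The identifiers of the MRPL24 probes appear exchanged between the deposited tables, and the second MRPL24 probe also moved by -0.34 (SE 0.15). Calls were lost under 8 of 16 alternatives for MRPL24 and under 7 of 16 each for MRPL23 and MRPL27. The larger rise was that of MRPL42, with 7.40 and 7.81 with Dox, against 6.96 and 6.78 without (log2 fold change 0.74, SE 0.20, adjusted p = 0.0155). MRPS17 had 10.98 and 11.11 with Dox, against 10.67 and 10.44 without (log2 fold change 0.49, SE 0.15, adjusted p = 0.0307). With array medians set equal the split was 2 higher and 4 lower, and with the medians of the tested items 1 and 6. Single arrays weighed on this count: 4 members were called without sh120 replicate 1, 4 without sh120 replicate 2 and 3 without sh120 Dox replicate 2. MRPS15 and MRPL55 stayed called without any 1 array, MRPL55 not in the mean of its probes.

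Over the 3 lines, 26 members were called with Dox in at least 1 and 47 in none. MRPS17, higher, and MRPL55, lower, were called in the same direction in both sh225 and sh120, and no member was called in opposite directions. In sh120 the MRPS17 call was lost under 7 of 16 alternatives, each of the 4 arrays left out among them, and the MRPL55 calls were lost in the mean of its probes in both lines. In Ctrl, MRPS17 had 10.50 and 10.97 with Dox, against 10.78 and 10.71 without, and MRPL55 had 10.14 and 10.11, against 10.08 and 10.26. The arms overlapped in both, with log2 fold changes of -0.01 (SE 0.15) and -0.04 (SE 0.12). Across the 73 members, Dox effects in sh225 and sh120, which share no arrays, correlated at r = 0.44, against 0.33 over all items. For sh225 and Ctrl the values were 0.14 and 0.22, and for sh120 and Ctrl 0.04 and 0.48. These are descriptions across genes, which are not independent replicates. In the mean Dox effect of the 3 lines 9 members were called higher and 10 lower, when 37.0% of all items were called (18.5% higher and 18.5% lower). The largest were MRPS17 at 0.39 and MRPL18 at -0.51. With array medians set equal this split was 16 higher and 4 lower, and with the medians of the tested items 12 and 8. Without untreated sh225 replicate 2, 12 members were called in the mean.

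The difference between lines was tested directly. Between the Dox effects of sh225 and Ctrl 6 members differed, 3 with a higher and 3 with a lower value in sh225, when 16.3% of all items differed (6.66% higher and 9.61% lower). The lower ones were MRPL36 (difference -0.94, SE 0.14, adjusted p = 7.33e-05), MRPL18 (-0.87) and MRPL12 (-0.72), all of the large subunit. The higher ones were MRPS17 (0.69), MRPS12 (0.56) and MRPS6 (0.44), all of the small subunit. A split by subunit was not tested. Of the tested members, 28 and 21 were large-subunit proteins, with and without a bacterial counterpart, and 15 and 9 small-subunit ones. The calls of MRPL36, MRPL18 and MRPL12 were kept under all 19 alternatives, while those of MRPS12, MRPS17 and MRPS6 were lost under 10, 7 and 4 of 19. With the series matrix, where the MRPS12 probes appear exchanged, the MRPS12 difference was 0.12 with an adjusted p of 0.623. On its own arrays MRPL36 read 10.96 and 11.11 in Ctrl Dox and 10.80 and 10.93 in Ctrl, and MRPL12 read 10.15 and 10.18 in Ctrl Dox and 10.06 and 10.06 in Ctrl. With array medians set equal 10 members differed, 7 higher and 3 lower.

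Between sh225 and sh120, 5 members differed, 3 higher and 2 lower in sh225, when 14% of all items differed (5.58% higher and 8.37% lower). MRPL18 (difference -1.05, SE 0.18, adjusted p = 0.000298) and MRPL36 (-0.79) were again lower, with the sh225 arrays shared by both tests. MRPL58, a peptidyl-tRNA hydrolase that rescues stalled ribosomes, was higher by 0.76, MRPS15 by 0.55 and MRPS10 by 0.46. Their calls were lost under 5, 4 and 9 of 19 alternatives, and those of MRPL18 and MRPL36 under 0. MRPL58 had 9.92 and 9.97 in sh225 Dox and 9.56 and 9.61 in sh225, and 9.21 and 8.96 in sh120 Dox and 9.63 and 9.34 in sh120. Neither of these Dox effects was called by itself. MRPS15 had 10.91 and 10.75 in sh225 Dox, against 10.81 and 10.87 in sh225, and MRPS10 had 11.09 and 10.93 in sh120 Dox, against 11.12 and 11.22 in sh120. The arms overlapped for MRPS15 (-0.01) and were apart but not called for MRPS10 (-0.16). Leaving out sh120 replicate 1 or 2, sh120 Dox replicate 2, sh225 replicate 1 or sh225 Dox replicate 2 left 3 called. With array medians or medians of the tested items set equal the split was 4 higher and 2 lower, or 5 and 2. Between sh120 and Ctrl no member differed (limma, 0 of 73, with 11 at an unadjusted p under 0.05), when 0.425% of all items did.

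**Figure D3:**
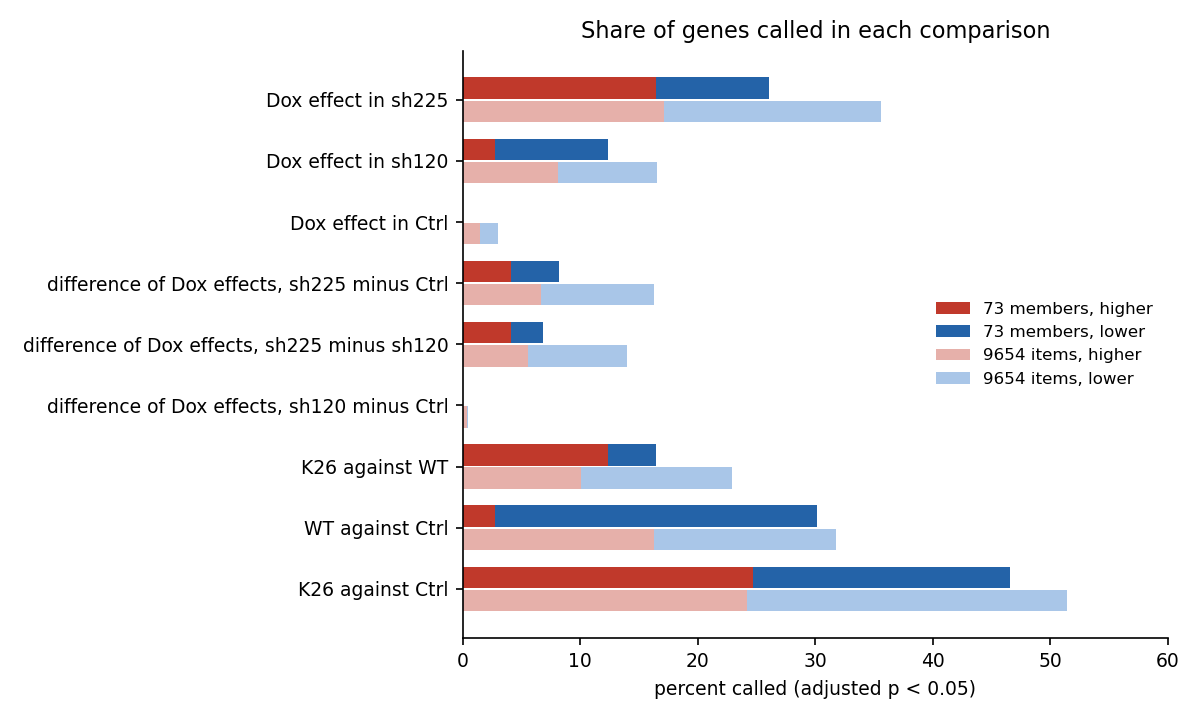
Percent of the 73 tested members (dark bars) and of all 9654 items (light bars) called at an adjusted p under 0.05, higher and lower, in 9 comparisons. The share of members called in either direction was below that of all items in each. By direction, it was slightly above that of all items for falls in sh120 and for rises in K26 against WT and against Ctrl. It was further above for falls in WT against Ctrl (20 of 73, against 15.5%). With array medians set equal, the calls there were 13 higher and 2 lower, and those in sh120 were 2 higher and 4 lower.

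By place in the ribosome, the tested members were 28 large-subunit proteins with a bacterial counterpart, 21 large-subunit proteins specific to mitochondria, 15 small-subunit proteins with a counterpart and 9 specific to mitochondria. With Dox in sh225 the first group had 3 rises and 4 falls with a median of 0.08, and the second 4 rises and 2 falls with a median of 0.04. Small-subunit proteins with a counterpart had 4 rises and 1 fall with a median of 0.01, and the mitochondria-specific ones 1 rise, that of MRPS31, with a median of 0.07. In sh120 the 4 groups had 0 rises and 4 falls, 1 and 2, 1 and 1, and 0 and 0. Their medians there were -0.07, -0.09, -0.15 and -0.03. The groups' shares called were 25%, 28.6%, 33.3% and 11.1% in sh225, where 35.6% of all items were called, and 14.3%, 14.3%, 13.3% and 0% in sh120, where 16.5% were.

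Of the members with a promoter window, the ETS letters stood in 4 of 11 that rose with Dox in sh225, 0 of 6 that fell and 23 of 48 that were not called. The YY1 letters stood in 5, 1 and 12 of these, and the NRF1 letters in 1, 1 and 6. Of the members that rose, MRPS18A and MRPS10 carried both ETS and YY1 letters, and MRPS18A has its YY1 letters after the start, outside the stretch shown. No test was made of these counts. RNA of YY1, a zinc finger factor, was lower with Dox in sh225, at 7.16 and 7.47, against 8.29 and 8.35 (-1.005 on the log2 scale, SE 0.20, adjusted p = 0.000673). It was not called in sh120, at 0.15 (SE 0.20), or in Ctrl, at -0.10 (SE 0.20). NRF1 and the GABP subunit gene GABPA were not among the tested genes. The further GABP subunit genes GABPB1 and GABPB2 were not called in sh225. A link of YY1 RNA to the motif counts was not tested.

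Some of these genes start near a divergent neighbour: 19 pairs of a member and a protein-coding gene had starts at most 1000 bases apart, and both were tested in 16. How often other genes have such a neighbour was not counted. In sh225, MRPL18 fell while TCP1, a subunit of the cytosolic chaperonin whose start is 210 bases away, had a value of 0.20 and was not called. MRPS12 rose while SARS2, the mitochondrial seryl-tRNA synthetase 181 bases away, had 0.27 and was not called. MRPL50 rose by 0.40 and its neighbour ZNF189, a zinc finger gene 233 bases away, fell by 0.40. MRPL49 fell while FAU, whose product includes the cytosolic ribosomal protein S30, had 0.02 (start 49 bases away). In 5 further pairs only the neighbour was called, among them the DNA repair gene EME1 at -1.14 beside MRPL27. Of all items 35.6% were called in sh225. In sh120 both MRPL27 and EME1 fell, by 0.40 and 0.81. Only the neighbour was called there in 3 pairs, when 16.5% of all items were called. With Dox in Ctrl no gene of these pairs was called, when 2.98% of all items were. MRPL46 and MRPS11, which are each other's neighbours 320 bases apart, were not called in any line.

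Other genes of mitochondrial translation were counted in the same way. With Dox in Ctrl, none of 9 translation factors, 20 assembly and rRNA maturation factors, 13 mitochondrial aminoacyl-tRNA synthetases, 7 mitochondrial DNA and transcription genes, 12 chaperones and proteases, 8 regulators of biogenesis and 68 nuclear respiratory chain subunits was called (limma). Of all items 2.98% were called there. At an unadjusted p under 0.05 these lists had 0, 0, 2, 1, 0, 0 and 5 members, beside 1554 of all 9654 items. The 2 tested mitoribosomal proteins under other symbols were not called in any of the 3 lines, with 0, 2 and 1 at an unadjusted p under 0.05 in Ctrl, sh120 and sh225. In sh225, 1 translation factor rose, the ribosome recycling factor MRRF (0.48). In sh120 it rose by 0.43 and the elongation factor GFM1 by 0.42, so that 11.1% of the translation factors were called in sh225 and 22.2% in sh120, against 35.6% and 16.5% of all items. MRRF had 10.36 and 10.21 on the sh225 Dox arrays, against 9.95 and 9.66 on the untreated ones, and 10.34 and 10.34 in sh120 Dox, against 9.89 and 9.92. Both lines were apart from their untreated arm.

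Of the assembly and rRNA maturation factors, RPUSD4, a pseudouridine synthase acting on mitochondrial rRNA, rose in sh225 (log2 fold change 0.73, SE 0.10, adjusted p = 1.24e-05) and in sh120 (0.33). NOA1, a GTPase of ribosome assembly, fell by 0.33 in sh225. The rRNA methyltransferase MRM3 rose by 0.42 and the endonuclease YBEY fell by 0.62 in sh120. The synthetase list had 1 call, a fall of TARS2 by 0.63 in sh120, and 0 in sh225 (1 at an unadjusted p under 0.05). In sh225 10% of the assembly factors and 0% of the synthetases were called, against 35.6% of all items. In sh120 the shares were 15% and 7.69%, against 16.5%. Of the mitochondrial DNA and transcription genes, 3 of 7 rose in sh225: the helicase TWNK (0.75), the DNA packaging factor TFAM (0.42) and the transcription factor TFB2M (0.38), the last also in sh120 (0.39). Their share lies beside the 17.1% of all items that rose in sh225.

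Regulators of biogenesis had 2 rises and, with YY1, 1 fall in sh225, or 37.5% of the list, against 35.6% of all items. The coactivator PPARGC1A read 6.21 and 6.37 with Dox, against 5.20 and 4.73 without (log2 fold change 1.32, SE 0.18, adjusted p = 1.37e-05). On these untreated arrays H1-4, which was not detected, read 4.54 and 4.47. The untreated PPARGC1A level was therefore near background, and the size of its rise is uncertain. Its relative PPRC1 rose by 0.62, and by 0.45 in sh120. Of 68 respiratory chain subunits, 5 rose and 12 fell in sh225 and 2 rose and 5 fell in sh120, with a median of -0.06 in each. Of 66 cytosolic ribosomal proteins, 24 rose and 0 fell in sh225, with a median of 0.20, while 2 rose and 2 fell in sh120 and 0 of 66 were called in Ctrl (4 at an unadjusted p under 0.05). Of all items, 17.1% rose and 18.5% fell in sh225 and 8.07% rose and 8.43% fell in sh120. The 36.4% of cytosolic ribosomal proteins called in sh225 all rose, and the median of all items there was 0.03. How this split depends on the scaling was not tested. The share of respiratory chain subunits called in sh225, 25%, was below the 35.6% of all items. The mitochondrial chaperones and proteases had 1 call in sh225, a rise of AFG3L2 (0.51), and 2 in sh120, falls of HTRA2 by 0.62 and of LONP1 by 0.47. These are 8.33% and 16.7% of the list, against 35.6% and 16.5% of all items.

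ATF4 targets and other genes of the mitochondrial stress response had 1 call of 15 with Dox in Ctrl, a fall of the secreted factor GDF15 by 0.53. Of all items 2.98% were called there. In sh225, 8 rose and 1 fell, with a median of 0.44, when 17.1% of all items rose and 18.5% fell. The rises were led by the transcription factor ATF3 (log2 fold change 1.07, SE 0.12, adjusted p = 1.87e-06), the pseudokinase TRIB3 (0.96), the metabolic sensor SESN2 (0.92) and GDF15 (0.84). ATF3 had 10.40 and 10.25 with Dox, against 9.10 and 9.41 without, and TRIB3 had 11.95 and 12.33, against 11.24 and 11.13. In sh120, 1 rose (PSPH, of serine synthesis, by 0.74) and 3 fell, among them GDF15 by 0.56. Of all items 8.07% rose and 8.43% fell there. The part of these genes in the members' values was not tested.

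The K26 and WT lines overexpress H1.4 with and without the K26A substitution. They are separate stable lines, so the substitution cannot be told apart from other differences between the lines. Of 73 members 12 were called in K26 against WT, 9 higher and 3 lower, when 22.9% of all items were called (10.1% higher and 12.8% lower). MRPL1, of the mobile L1 stalk, had 8.40 and 8.41 in K26, against 7.87 and 7.62 in WT (log2 fold change 0.66, SE 0.17, adjusted p = 0.00887). MRPL50 had 9.90 and 10.10 in K26, against 9.36 and 9.48 in WT (log2 fold change 0.58, SE 0.14, adjusted p = 0.00704). MRPL32, which the m-AAA protease processes before assembly, had 10.88 and 10.98 in K26, against 10.49 and 10.50 in WT (log2 fold change 0.44, SE 0.10, adjusted p = 0.00553). The lines did not overlap in any of the 3.

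MRPS10 had 11.19 and 11.07 in K26, against 10.67 and 10.74 in WT (log2 fold change 0.42, SE 0.11, adjusted p = 0.00747). MRPL57 had 7.35 and 7.53 in K26, against 7.16 and 6.87 in WT (log2 fold change 0.42, SE 0.15, adjusted p = 0.0432), and MRPL52 had 8.68 and 8.58, against 8.27 and 8.17 (log2 fold change 0.41, SE 0.14, adjusted p = 0.0348). These are proteins of different places in the ribosome, MRPS10 in the small and the others in the large subunit. MRPS22, a mitochondria-specific small-subunit protein, had 11.74 and 11.64 in K26, against 11.32 and 11.31 in WT, with a smaller change of 0.37 (SE 0.09, adjusted p = 0.00482). MRPS30 and MRPL15 made up the remaining rises. MRPL17 had 9.88 and 9.61 in K26, against 10.36 and 10.09 in WT (log2 fold change -0.48, SE 0.13, adjusted p = 0.0103). MRPL14, counterpart of the bacterial L14 at the subunit interface, had 10.56 and 10.39 in K26, against 10.86 and 10.97 in WT (log2 fold change -0.44, SE 0.10, adjusted p = 0.00504), and MRPL24 had 11.40 and 11.21, against 11.58 and 11.69 (log2 fold change -0.33, SE 0.10, adjusted p = 0.0258). In each of these genes the 2 lines were apart. The MRPL24 call was lost under 7 of 16 alternatives. Its value was -0.15 in the series matrix, where its probes appear exchanged, and -0.26 in the mean of its probes. The calls of MRPL57 and MRPL52 were lost under 7 and 6 of 16. The count fell to 5 without WT replicate 1 and to 2 without K26 replicate 2. With array medians set equal the split was 6 higher and 4 lower.

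In WT against Ctrl 22 of 73 members were called, 2 higher and 20 lower, when 31.8% of all items were called (16.3% higher and 15.5% lower). This split turns with the scaling. It was 13 higher and 2 lower with array medians set equal, where the median of all items was 0.13, and 10 higher and 11 lower with the medians of the tested items. WT and Ctrl were also in different runs of sample numbers, so run and line cannot be told apart. Without Ctrl replicate 1, Ctrl replicate 2 or WT replicate 1, 11, 14 and 11 members were called. The 6 largest falls were those of MRPL23, MRPL40, MRPL55, MRPL15, MRPS28 and MRPL43. MRPL23 had 9.57 and 9.52 in WT, against 10.25 and 10.28 in Ctrl (log2 fold change -0.72, SE 0.14, adjusted p = 0.000557), and MRPL40 had 9.27 and 9.52, against 10.05 and 9.95 (log2 fold change -0.60, SE 0.13, adjusted p = 0.00192). These 2 stayed called under every alternative tried.

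MRPL55 had 9.55 and 9.71 in WT, against 10.08 and 10.26 in Ctrl (log2 fold change -0.54, SE 0.12, adjusted p = 0.00297), and MRPL15 had 9.74 and 9.86, against 10.41 and 10.24 (log2 fold change -0.53, SE 0.11, adjusted p = 0.0014). MRPS28 had 8.40 and 8.52 in WT, against 8.76 and 9.16 in Ctrl (log2 fold change -0.50, SE 0.13, adjusted p = 0.00758), and MRPL43 had 10.68 and 10.67, against 11.22 and 11.08 (log2 fold change -0.47, SE 0.11, adjusted p = 0.00363). The lines did not overlap in these 4, but all 4 calls were lost with array medians set equal. The MRPL43 call was also lost with the series matrix (-0.12), where 2 of its probes appear exchanged, and in the mean of its probes (-0.06). Its other 2 probes moved by 0.43 (SE 0.16) and -0.13 (SE 0.15). MRPL49 was higher, with 9.34 and 9.30 in WT, against 8.83 and 9.07 in Ctrl (log2 fold change 0.37, SE 0.12, adjusted p = 0.0231), and so was MRPL32, with 10.49 and 10.50, against 10.23 and 10.20 (log2 fold change 0.28, SE 0.10, adjusted p = 0.0432). Neither pair of groups overlapped, but the calls were lost under 4 of 15 alternatives for MRPL49 and 7 of 15 for MRPL32. In K26 against Ctrl 34 members were called, 18 higher and 16 lower, when 51.4% of all items were called (24.2% higher and 27.2% lower), and with array medians set equal 20 were higher and 8 lower. MRPL23 had 9.29 and 9.33 in K26, a difference of -0.95 from Ctrl, and MRPL40 9.01 and 9.20, a difference of -0.90. MRPL32 was higher by 0.72 and MRPL33 by 0.82. Comparisons with Ctrl share the Ctrl arrays, and those with WT the WT arrays.

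**Figure D4:**
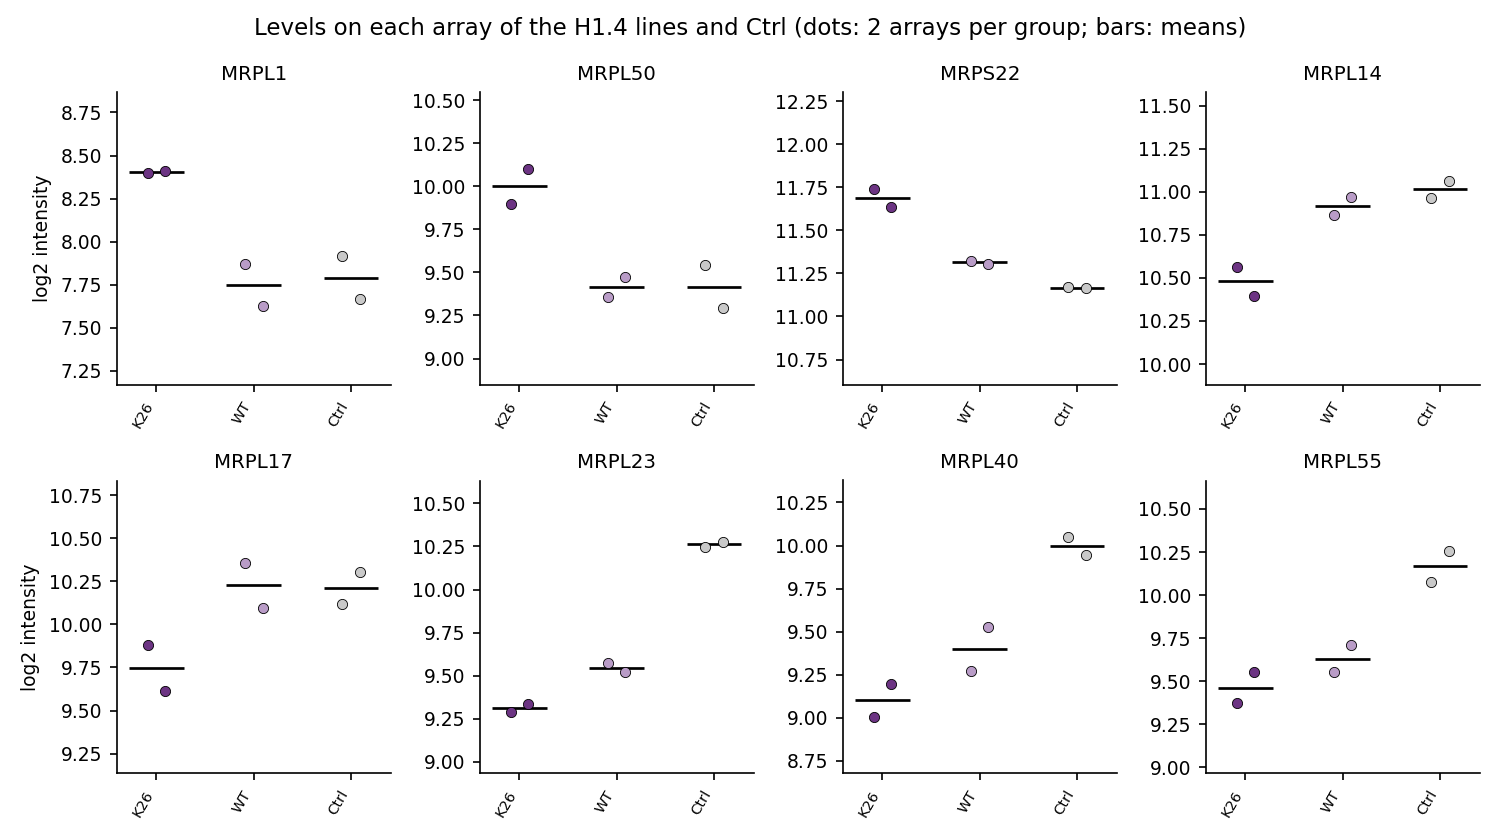
Log2 intensities on each array of the K26, WT and Ctrl groups for 8 members; dots are the 2 arrays of a group and bars their mean, and every panel spans the same range on the log2 scale. MRPL1 and MRPL50 are higher in K26 than in both other groups, and MRPL23 and MRPL40 are lower in K26 and WT than in Ctrl.

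Before Dox the hairpin lines did not differ detectably from Ctrl in these genes. In untreated sh225 against Ctrl 0 of 73 members were called (limma, 12 at an unadjusted p under 0.05), when 0.456% of all items were called, and values ran from -0.78 to 0.35. In untreated sh120 against Ctrl 0 were called (8 at an unadjusted p under 0.05), when 0.0207% of all items were called, with values from -0.50 to 0.38. The sh225 and Ctrl lines belong to different runs.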

How the data were processed

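RNA of the 16 arrays was measured as bead intensity. The authors deposited a table of probe intensities with a detection p-value for each, not normalized, and a series matrix of processed values, which were used on the log2 scale as an alternative. GenomeStudio 1.6.0 is named in the submitters' processing notes.

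From the deposited intensities, limma 3.58.1 (R 4.3.3) computed background-corrected, quantile-normalized log2 values (neqc with offset 16, its negative controls taken from the detection p-values). Probes with a detection p under 0.01 on at least 2 arrays were kept (11258 of 24530), and the brightest probe stood for each symbol. GEO's platform annotation gave 1 symbol for 23266 probes, several for 0 and none for 1264. RefSeq matched 23142, and no member symbol changed. A model of the 8 group means (8 residual degrees of freedom, eBayes with a trend) gave the contrasts, and the code was tested on simulated data.

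The members and lists were chosen with earlier results of these data known. Members described array by array were the 8 largest called rises and falls with Dox in sh225 and sh120, the 6 largest in K26 against WT and WT against Ctrl, those called alike in several lines and those whose Dox effects differed between lines. From other lists up to 4 called genes were named. Other names were chosen after their values were seen. Alternatives covered background, offset, scaling, source table, probe filter, probe choice, moderation, arrays in the fit, run, replicate block and each array left out. Scaling on the medians of the tested items was chosen after seeing the data.

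For each array a smooth curve was fitted of the series matrix on the scanner values, both on the log2 scale. The median distance from it over the arrays was above 0.3 for 1095 probes (4.46%). Among them were 12 of the 104 member probes and the tested probes of MRPL24, MRPL33, MRPL43, MRPL35, MRPS12 and MRPL10. An exchange of identifiers between probes was not tested by itself.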

Additional observations from a re-analysis of the deposited data

Results flagged for a closer look

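The Dox effects of 11 member and line pairs differed in a direct test of the difference (limma, 2 arrays in each group). In sh225 minus Ctrl the differences were -0.94 (SE 0.14, adjusted p = 7.33e-05) for MRPL36, -0.87 (SE 0.18, adjusted p = 0.00161) for MRPL18 and -0.72 (SE 0.15, adjusted p = 0.00256) for MRPL12. They were 0.69 (SE 0.21, adjusted p = 0.0284) for MRPS17, 0.56 (SE 0.18, adjusted p = 0.04) for MRPS12 and 0.44 (SE 0.12, adjusted p = 0.0118) for MRPS6. In sh225 minus sh120 the differences were -1.05 (SE 0.18, adjusted p = 0.000298) for MRPL18, -0.79 (SE 0.14, adjusted p = 0.000462) for MRPL36, 0.76 (SE 0.22, adjusted p = 0.0227) for MRPL58, 0.55 (SE 0.15, adjusted p = 0.016) for MRPS15 and 0.46 (SE 0.15, adjusted p = 0.0445) for MRPS10. The MRPS12 probes appear exchanged between the deposited tables, and with the series matrix the MRPS12 difference in sh225 minus Ctrl was 0.12 and not called. That call was lost under 10 of 19 alternatives, and those of MRPS17 and MRPS6 under 7 and 4 of 19. The sh225 arrays enter both sets, and sh225 lies in another run of sample numbers than Ctrl and sh120. Groups of 2 arrays are too small to test single arrays as outliers.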

How the results depend on the processing

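Of 54 named results under 903 alternatives in all, 742 kept their call, 161 lost it and 0 changed direction, and 15 results lost no call under any of the alternatives run. In sh225, MRPL18, MRPL36, MRPL12, MRPS17, MRPS18A and MRPS6 were among these. The count of called members in sh120 (9) was 5 with no filter on detection and 5 without a trend in eBayes. In sh225 minus Ctrl (6) it was 10 with array medians, 3 without a trend and 3 with only the groups compared. Leaving out 1 array gave 3 to 6 in sh120, 10 to 19 in sh225, 12 to 19 in the mean, 4 to 9 in sh225 minus Ctrl, 3 to 6 in sh225 minus sh120, 2 to 9 in K26 against WT, 11 to 16 in WT against Ctrl, 27 to 29 in K26 against Ctrl, and 0 in the others. An arm left with 1 array was assumed to vary like the other groups. With a replicate block the counts were 0 in Ctrl, 9 in sh120, 18 in sh225, 18 in the mean, 6 in sh225 minus Ctrl, 4 in sh225 minus sh120, 12 in K26 against WT, 22 in WT against Ctrl and 32 in K26 against Ctrl. Same-numbered replicates deviated together in K26 with WT but not in the other pairs of groups: correlations of deviations were -0.16, 0.03, 0.03, 0.29 and -0.18 for Ctrl Dox with Ctrl, sh120 Dox with sh120, sh225 Dox with sh225, K26 with WT and WT with Ctrl, and no label pairs them. Within a run the counts were 0 in Ctrl, 10 in sh120, 21 in sh225 and 11 in K26 against WT. Comparisons that span both runs could not be fitted within one. The cause of a lost call was not tested, apart from fewer arrays where one was left out. Genes near background, MRPL3, MRPL44 and MRPS18C among them, could not be measured.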
